A study of Astatotilapia calliptera and Haplochromis burtoni and Pundamilia nyererei with 40 samples.

Results

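The genes described here are the Tudor domain genes of Astatotilapia calliptera (AC), a cichlid of Lake Malawi, that carry the symbols tdrd1, tdrd3, tdrd6, tdrd7a, tdrd7b, tdrd9 and tdrkh in the AC gene table. They were found by symbol and are 7 of the 26977 genes of that table, after repeated entries were dropped. All 7 were read in AC gonads and brains, and by identifier in the testes of 2 further Lake Malawi species. The pair tdrd7a and tdrd7b are paralogues, copies of 1 ancestral gene, and they are compared with each other throughout.

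The study sequenced poly(A)-selected messenger RNA (mRNA) from gonads and brains of East African cichlids, to follow transposable elements (TEs) and the genes that silence them. Used here were the testes (4 libraries), ovaries (4), male brains (3) and female brains (3) of AC, and the testes of Tropheops sp. 'mauve' (TM, 4) and Maylandia zebra (MZ, 2). All fish were wild-type, no ages are given in the labels, and replicates were size-matched individuals of a species. Gonad libraries came from a sequencing company and brain libraries from the laboratory itself, so for gonads against brains the organ and the preparation cannot be told apart.

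Tudor domains are small folds that bind methylated arginine or lysine on other proteins. In animal germ cells several Tudor domain proteins bind the methylated arginines of Piwi proteins, the Argonaute proteins that carry Piwi-interacting RNAs (piRNAs) and silence TEs, and so assemble the granules (nuage) beside the nucleus where piRNAs are made. Other members of the family act in somatic cells, where they bind histone marks or take part in translation and RNA granules.

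In RefSeq's annotation of the AC assembly fAstCal1.2, which has the same name as the genome the reads were mapped to, 6 of the 7 symbols were matched. The gene bodies of tdrd1 (ENSACLG00000014107, chr3:35577591-35589647) and tdrd7b (ENSACLG00000019610, chr3:9750063-9767059) lie on chromosome 3. The other paralogue, tdrd7a (ENSACLG00000000968, chr6:12654078-12671541), lies on chromosome 6, so the pair is not a tandem repeat. tdrd3 (ENSACLG00000022962) spans chr1:13667203-13680782, tdrd9 (ENSACLG00000020660) spans chr19:24537549-24575956 and tdrkh (ENSACLG00000003017) spans chr8:25734621-25769602. tdrd6 (ENSACLG00000007717) was not matched by symbol.

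Total gene counts lay between 18241046 and 22360362 per AC gonad library and between 6728130 and 19685495 per AC brain library. For Lake Malawi testes, total counts of genes and TE families lay between 23631390 and 26742599. AC ovary replicate 1 stood apart. Its TMM scaling factor was 0.544, against 0.947 to 1.116 in the other 13 libraries, and its log2(TPM + 1) values correlated with the other ovaries at r = 0.85 to 0.88, against 0.96 to 0.97 among those. TPM is transcripts per 1000000 transcripts, a level per gene length. Each of the 7 genes had its lowest ovary level there. So did nanos3 (4.77 TPM, against 124 to 197 in the other ovaries) and prmt5 (3.97, against 137 to 174). The germ cell genes piwil2, rnf17, ddx4 and dazl were also lowest there, at 30.6%, 36.5%, 50.1% and 53.1% of the mean of the other ovaries. Germ cell genes did not all fall: dnd1 had 215 TPM there, against 152 to 196, and henmt1 145 TPM, against 82.4 to 147. The oocyte gene zar1 had 1440 TPM there, against 1180 to 2040. Genes of general function stood apart there too. The transcription factor gene tbp had 1.78 TPM, against 25.6 to 34.1, and the ribosomal protein gene rps18 had 5150 TPM, against 633 to 1620.

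The organ labels were checked against marker genes. Neuron markers summed to between 4410 and 5570 TPM in brains and to at most 8.96 TPM in gonads. Of the 15 symbols listed for male germ cells and sperm 10 genes were found, and these summed to between 392 and 1950 TPM in AC testes, to between 7.78 and 15.7 TPM in AC ovaries and to between 33.5 and 55.8 TPM in brains. cyp19a1a, the aromatase of ovarian somatic cells, had between 0.0803 and 0.696 TPM in testes and between 51.8 and 433 TPM in ovaries. It was 1 of 4 genes found of 7 symbols listed for ovarian somatic cells. Together the 4 summed to between 56.9 and 72.7 TPM in AC testes and to between 125 and 705 TPM in AC ovaries. Nearly all of that testes sum thus came from the other genes of the list. Oocyte markers, however, stood at ovary levels in the libraries labelled testes: 9 genes summed to between 7560 and 12000 TPM in AC testes and to between 8060 and 11900 TPM in AC ovaries. Among them figla had 221 to 308 TPM in AC testes and 111 to 373 TPM in AC ovaries. The testes of TM (5600 to 7240 counts per 1000000 of the library total, CPM) and MZ (5450 to 7840 CPM) carried these oocyte markers as well. The testes libraries thus hold RNA of oocyte genes beside that of sperm genes, and the part this plays in the testes values below was not tested.

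Each member was first read as a level. In AC testes tdrd7a averaged 219 TPM, tdrd6 214, tdrd1 102, tdrd9 73.9, tdrd3 46.4, tdrkh 17.6 and tdrd7b 0.888 TPM (n = 4). Neighbours in this order did not overlap between libraries, except tdrd7a and tdrd6. In AC ovary the means were 74.2 TPM for tdrd7a, 47.6 for tdrd1, 38.4 for tdrd6, 32.8 for tdrd3, 32.1 for tdrd9, 5.61 for tdrkh and 0.290 for tdrd7b (n = 4), and only tdrd9 and tdrkh were neighbours whose libraries did not overlap. Brains had another order. tdrd3 led with a mean of 33.6 TPM in male and 40.9 TPM in female brains (n = 3 each), followed by tdrkh (26.3 and 26.4), tdrd7b (4.94 and 4.91), tdrd1 (2.46 and 2.19), tdrd9 (1.21 and 1.73), tdrd6 (0.662 and 0.328) and tdrd7a (0.143 and 0.197). Neighbours in this order did not overlap in male brains, while in female brains tdrd1 overlapped tdrd9 and tdrd6 overlapped tdrd7a. By mean, tdrd7a was thus the highest in both gonads and the lowest in both brains. Its libraries overlapped those of its neighbour in testes, ovary and female brain.

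**Figure D1:**
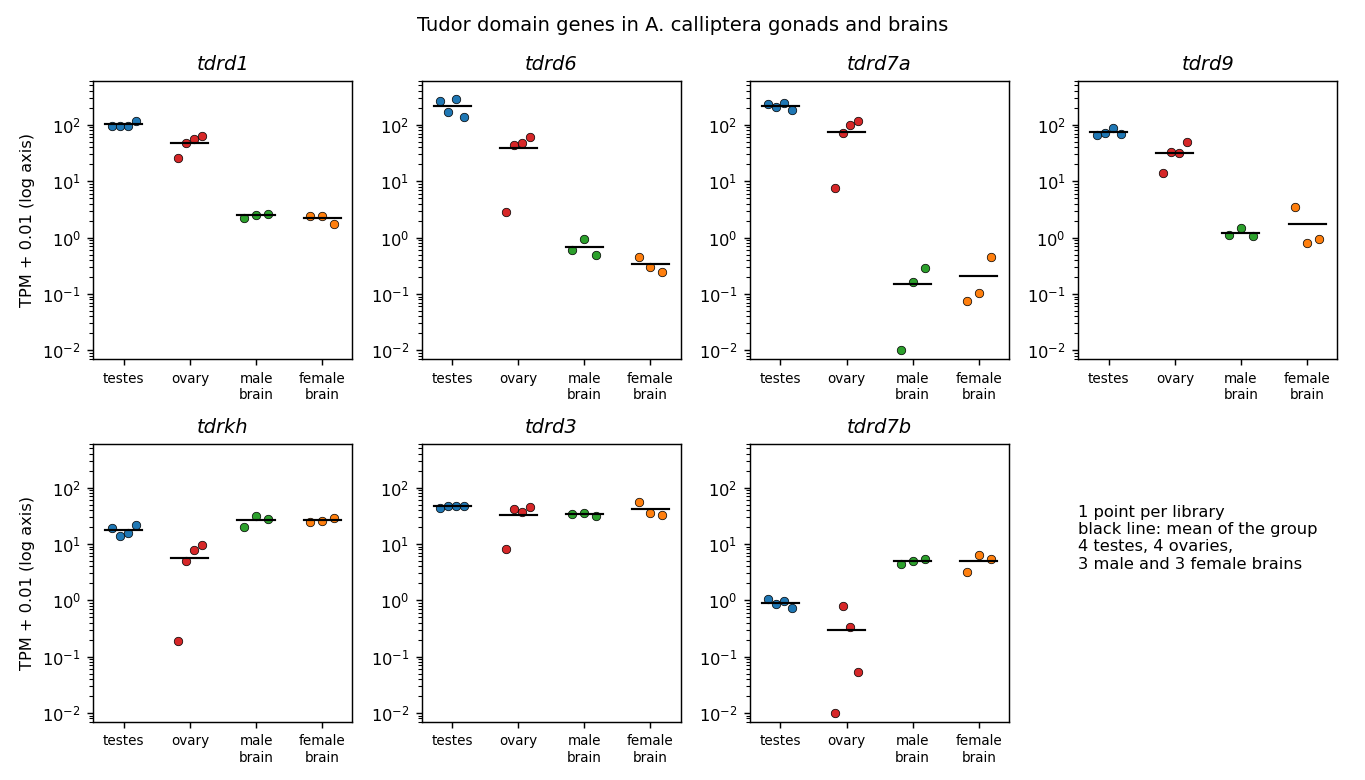
Level of each Tudor domain gene per AC library, on a log axis of TPM + 0.01, with 1 point per library and the mean of each group as a line (4 testes, 4 ovaries, 3 male and 3 female brains). tdrd1, tdrd6, tdrd7a and tdrd9 sit higher in all gonads than in any brain, tdrd7b sits lower in all gonads than in any brain, and AC ovary replicate 1 is the lowest ovary point in every panel.

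Gonads were set against brains to separate the germline organs from a somatic one. Counts were fitted in 1 edgeR quasi-likelihood model over the 14 libraries, with Benjamini-Hochberg adjustment over 20893 genes and a call at an adjusted p under 0.05; SE is the standard error of a log2 fold change. tdrd7a, tdrd6, tdrd9, tdrd1 and tdrd3 rose in gonads, tdrd7b fell, and tdrkh did not pass the test. That is 6 of 7 members called (5 higher and 1 lower) and 5 whose libraries did not overlap, where 75.7% of all genes tested were called (37.1% higher and 38.6% lower) and 46.0% did not overlap, so the count itself does not set the members apart. The median log2 fold change of the 7 was 5.23, against -0.02 over all genes. Without AC ovary replicate 1 all 7 were called, beside 16943 of 20929 genes. In that fit tdrd1 had 5.23, tdrd9 5.69, tdrd6 7.88 and tdrd7a 10.19. In bulk tissue, a gene that is lower because fewer cells express it and a gene with less RNA per cell cannot be told apart.

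tdrd1 encodes a scaffold that binds Piwi proteins in mouse and zebrafish germ cells. It had 97.0, 95.5, 96.7 and 118 TPM in testes and 25.6, 47.2, 55.2 and 62.5 TPM in ovaries, against 2.26, 2.53 and 2.58 TPM in male brains and 2.44, 2.40 and 1.72 TPM in female brains. All 8 gonad libraries lay above every brain. The log2 fold change of gonads over brains was 5.23 (SE 0.19, adjusted p = 2.87e-11, edgeR).

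tdrd9 encodes an RNA helicase with a Tudor domain that is needed to silence retrotransposons in mouse testes. Its levels were 66.7, 71.6, 89.3 and 68.2 TPM in testes and 14.2, 32.8, 32.3 and 49.2 TPM in ovaries, against 1.12, 1.46 and 1.05 TPM in male brains and 3.46, 0.805 and 0.919 TPM in female brains. Gonads and brains did not overlap here either, and female brain replicate 1, the deepest brain library, was the highest brain. The log2 fold change was 5.65 (SE 0.36, adjusted p = 4.16e-09, edgeR).

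tdrd6 encodes a large protein of many Tudor domains, which in zebrafish binds Bucky ball and shapes the germ plasm. It had 261, 172, 283 and 140 TPM in testes and 2.78, 43.2, 47.1 and 60.6 TPM in ovaries, against 0.582, 0.918 and 0.485 TPM in male brains and 0.450, 0.296 and 0.238 TPM in female brains. The lowest gonad, AC ovary replicate 1, still lay above the highest brain. The log2 fold change was 7.69 (SE 0.50, adjusted p = 4.92e-09, edgeR).

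tdrd7a encodes one of the 2 copies of Tdrd7, a granule protein that in mouse acts in the chromatoid body of spermatids and in the lens. Testes had 239, 211, 246 and 180 TPM and ovaries 7.46, 73.0, 99.6 and 117 TPM, against 0, 0.152 and 0.277 TPM in male brains and 0.0656, 0.0923 and 0.434 TPM in female brains. Over the 6 brains together it drew only 18 counts, and the 0 counts in male brain replicate 1 allow up to 0.423 CPM (3 counts of the unscaled total, counting error only). Its log2 fold change of 10 (SE 0.64, adjusted p = 4.58e-09, edgeR) was the largest of the 7, and was 10.64 without female brain replicate 3, which had 6 of the 18 counts, and 8.81 by limma on TPM.

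tdrd7b, the other copy, ran the opposite way. It had 1.03, 0.851, 0.952 and 0.721 TPM in testes and 0, 0.792, 0.324 and 0.0439 TPM in ovaries, against 4.45, 4.90 and 5.45 TPM in male brains and 3.18, 6.25 and 5.29 TPM in female brains. Every gonad lay below every brain. tdrd7b fell by 2.63 on the log2 scale in gonads (SE 0.56, adjusted p = 0.000698, edgeR), and without AC ovary replicate 1, where its 0 counts allow up to 0.164 CPM, by 2.39 (adjusted p = 0.000186).

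tdrkh, whose mouse protein sits on mitochondria and helps to trim piRNA precursors, did not show the gonad pattern. It had 18.9, 13.7, 15.8 and 22.1 TPM in testes and 0.183, 4.93, 7.71 and 9.61 TPM in ovaries, against 19.6, 31.5 and 27.9 TPM in male brains and 24.6, 25.2 and 29.2 TPM in female brains. Of the 8 gonads 7 lay below every brain. The log2 fold change was -0.82 (SE 0.44, adjusted p = 0.102, edgeR), but without AC ovary replicate 1 it was -0.61 with an adjusted p of 0.0127. tdrkh was also called lower with RLE scaling (-1.17, adjusted p = 0.0172) and by DESeq2 (-1.17, adjusted p = 0.00602). In these 2 fits the median of all genes was itself -0.31 and -0.32, against -0.02 in the main fit. By limma on TPM tdrkh was called as well (-1.80, adjusted p = 0.0235, 1.34 below the median of all genes on that scale).

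tdrd3 encodes a reader of methylated arginine that in human and mouse works with the topoisomerase TOP3B and the fragile X protein. Levels were 44.2, 47.2, 46.4 and 47.7 TPM in testes and 8.28, 41.5, 36.3 and 45.3 TPM in ovaries, against 33.5, 35.4 and 31.8 TPM in male brains and 55.1, 35.0 and 32.6 TPM in female brains. Organs overlapped on this scale, with ovary replicate 1 lowest and female brain replicate 1 highest. The counts, which carry no correction for transcript length, gave a log2 fold change of 0.77 (SE 0.23, adjusted p = 0.00688, edgeR), whereas limma on log2(TPM + 0.1), an alternative added after the data were seen, gave -0.03 (adjusted p = 0.932), 0.43 above the median of all genes on that scale. On counts the call was also lost with RLE scaling (0.45, adjusted p = 0.0574) and total count scaling (0.66, adjusted p = 0.0523), so the call for tdrd3 depends on the scale.

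**Figure D2:**
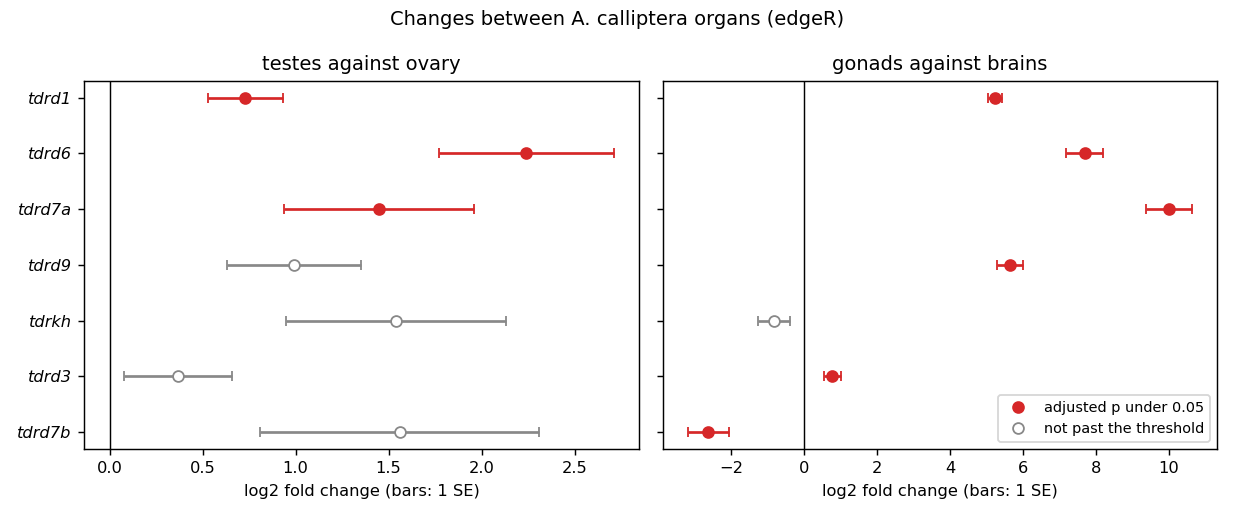
Log2 fold change of each Tudor domain gene in testes against ovary and in gonads against brains of AC, from edgeR on counts, with bars of 1 SE and filled points where the adjusted p was under 0.05. The horizontal scales of the panels differ: all testes against ovary values lie between 0.37 and 2.24, while gonads against brains values run from -2.63 for tdrd7b to 10 for tdrd7a.

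Within each sex the same contrast was read from the model over the 14 libraries. In testes against male brain 6 of 7 members were called (5 higher and 1 lower), beside 65.0% of all genes (32.5% higher and 32.5% lower), and in ovary against female brain 6 of 7 (4 higher and 2 lower), beside 67.7% (32.4% higher and 35.4% lower). Libraries did not overlap for 6 of 7 members in each sex, beside 76.4% of genes in males and 60.4% in females. tdrd7a had a log2 fold change of 10.75 (SE 0.93) in males and 9.25 (SE 0.89) in females, tdrd6 of 8.32 (SE 0.72) and 7.06 (SE 0.69), tdrd9 of 6.44 (SE 0.53) and 4.86 (SE 0.49), and tdrd1 of 5.49 (SE 0.27) and 4.97 (SE 0.27). Single brain libraries moved some of these folds: tdrd7a had 11.79 in males without male brain replicate 3 and 10.47 in females without female brain replicate 3, and tdrd9 had 5.96 in females without female brain replicate 1. tdrd7b had -1.88 (adjusted p = 0.0468) in males and -3.37 (adjusted p = 0.00225) in females, where it was -4.43 without AC ovary replicate 2. Without AC ovary replicate 1 all 7 were called in females, beside 15429 of 20929 genes. In that fit tdrd7a had 9.63, tdrd6 7.38, tdrd1 4.94, tdrd9 4.90 and tdrd7b -2.96. The call of tdrd7b in testes was lost under 14 of 21 alternatives, adjusted p reaching 0.133, although all 4 testes lay below the 3 male brains.

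tdrkh and tdrd3 passed the test in 1 sex each. tdrkh had -0.07 between testes and male brain (SE 0.62, adjusted p = 0.931), while in ovary it fell by 1.58 against female brain (SE 0.63, adjusted p = 0.037), a call lost without any 1 of the 3 female brains (adjusted p up to 0.0893), without AC ovary replicate 2 (0.076) and in a fit of ovaries and female brains alone (-1.62, adjusted p = 0.12). tdrd3 had 1.09 (SE 0.33, adjusted p = 0.00918) in males and 0.45 (SE 0.32, adjusted p = 0.224) in females, and 0.70 in females without AC ovary replicate 1 (adjusted p = 0.00954). On the TPM scale neither sex passed for tdrd3 (0.47 in males and -0.53 in females). The difference between the sexes was itself tested as an interaction: 0 of 7 members passed, beside 12.4% of all genes (7.63% higher and 4.78% lower). At an unadjusted p under 0.05 there was 1 member, tdrd9 (1.58, SE 0.59, adjusted p = 0.0947). That value was 0.48 (adjusted p = 0.475) without female brain replicate 1, the brain with the highest tdrd9 level. DESeq2 also called 0 members, where it called 3877 of 20488 genes.

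Between male and female brains no member was called by edgeR, none had an unadjusted p under 0.05, and DESeq2 called 0 as well; over all genes edgeR called 0%. tdrd6 came nearest, at 0.582, 0.918 and 0.485 TPM in male brains against 0.450, 0.296 and 0.238 TPM in female brains (log2 fold change 0.98, SE 0.63, adjusted p = 1.0). It was the 1 member whose libraries did not overlap, where 14.2% of genes tested did not. These brain levels rest on between 7 and 30 counts per library.

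tdrd1 and tdrd9 were low in brain, and were set beside other germline genes, chosen after their values were seen. The brain mean of tdrd1, 2.32 ± 0.314 TPM (SD, n = 6, 447 counts in all), was 2.28% of its testes mean and 4.87% of its ovary mean. For tdrd9 these shares were 1.99% and 4.57%. The germline genes piwil2, a Piwi gene, and ddx4, the vasa helicase, had brain means of 0.116% and 0.263% of their testes means, rnf17, another Tudor domain gene, had 0.185% and the oocyte gene zar1 0.0368%. The germ cell genes dazl, figla and henmt1 had 0.152%, 0.12% and 0.13%. tdrd6 (0.231%) and tdrd7a (0.0777%) lay among these genes. Other germline genes had shares above those of tdrd1 and tdrd9: 2.9% for pld6, 4.8% for the oocyte growth factor gdf9 and 10.9% for sycp3, a protein of meiotic chromosomes. Against ovary means the shares were 24.8% for pld6, 3.98% for gdf9 and 961% for sycp3, which was thus higher in brain than in ovary. For piwil2, ddx4, rnf17 and zar1 they were 0.289%, 0.698%, 0.615% and 0.0436%. The brain level as a share of the testes level thus differed widely between these germline genes. The shares of tdrd1 and tdrd9 lay above those of piwil2, ddx4, rnf17, zar1, dazl, figla and henmt1. As shares of the testes mean they lay below those of pld6, gdf9 and sycp3. As shares of the ovary mean, tdrd1 (4.87%) and tdrd9 (4.57%) lay above gdf9 (3.98%). As the genes were picked with their values known, the place of tdrd1 and tdrd9 among them is descriptive only.

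The relative level of the paralogues was measured within each library as the log2 ratio of tdrd7a to tdrd7b, with 0.1 TPM added to each. The ratio was 7.73, 7.79, 7.87 and 7.78 in testes and 6.24, 6.36, 7.88 and 9.67 in ovaries, against -5.51, -4.31 and -3.88 in male brains and -4.31, -5.05 and -3.34 in female brains. tdrd7a made up at least 98.9% of the summed TPM of the pair in every gonad and at most 7.58% in every brain. Gonads averaged 7.66 ± 1.06 (SD, n = 8) and brains -4.40 ± 0.78 (SD, n = 6), a difference of 12.06. An exact permutation test, two-sided, gave p = 0.000666, the smallest this design allows (adjusted over 5 such comparisons, 0.00333), and all 8 gonads lay above all 6 brains.

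Within the gonads the ratio did not separate the organs. It averaged 7.79 ± 0.06 (SD, n = 4) in testes and 7.54 ± 1.60 (SD, n = 4) in ovaries, a difference of 0.26 (exact permutation p = 1.0). The 4 testes agreed closely and the ovaries spread widely, as tdrd7b drew 0, 54, 22 and 3 counts in them. The sign of this testes minus ovary difference in the ratio is not fixed. It turned negative with 0.01 TPM added in place of 0.1, and was -0.17 without AC ovary replicate 1. Between male and female brains the ratio differed by -0.34 (exact permutation p = 0.6, smallest possible 0.1).

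**Figure D3:**
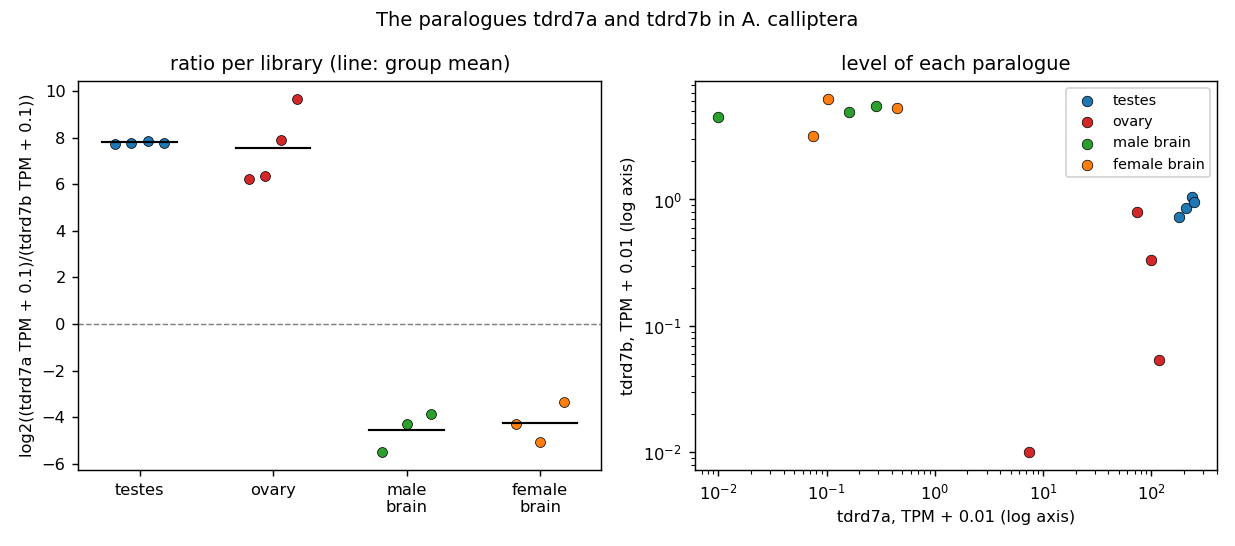
The paralogues tdrd7a and tdrd7b per AC library: at left the log2 ratio of their TPM values (0.1 added to each, line at the group mean), at right both levels on log axes of TPM + 0.01. Gonads lie between 6.24 and 9.67 and brains between -5.51 and -3.34, and in the right panel the brains sit at top left and the gonads at bottom right.

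Testes were then set against ovaries, which share a preparation. tdrd6, tdrd7a and tdrd1 rose in testes: 3 of 7 members were called, all higher, beside 30.4% of all genes (16.2% higher and 14.2% lower). Over all genes that is 3394 higher and 2960 lower, or 3615 and 1821 when scaled by total counts, and 3950 and 955 by limma on TPM, where the median of all genes was 0.51 and not 0.02. The median log2 fold change of the 7 was 1.45, against 0.02 over all genes. In TPM the libraries of 5 members did not overlap, all with testes above ovaries, where 27.8% of genes did not overlap in either direction. On that scale genes in general lay higher in testes, as the limma values above show. The 4 members that did not pass also had positive values, and the ovary-like oocyte markers of the testes stand beside all of these changes.

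tdrd6 had the largest change, with 261, 172, 283 and 140 TPM in testes against 2.78, 43.2, 47.1 and 60.6 TPM in ovaries (log2 fold change 2.24, SE 0.47, adjusted p = 0.00287, edgeR). It remained called under all 23 alternatives, and without AC ovary replicate 1 the change was 1.93 (adjusted p = 0.000304). For tdrd1 it was 0.73 (SE 0.20, adjusted p = 0.0123), and the call was lost with RLE scaling (0.63, adjusted p = 0.061). The call of tdrd7a (1.45, SE 0.51, adjusted p = 0.0446) was the least firm, since 11 of 23 alternatives lost it, among them the loss of any 1 testes library (adjusted p up to 0.0905). Without AC ovary replicate 1 it was kept, at 1.14 (adjusted p = 0.0145).

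tdrd9 and tdrkh were higher in all 4 testes than in any ovary, yet missed the threshold, at 0.99 (SE 0.36, adjusted p = 0.0516) and 1.54 (SE 0.59, adjusted p = 0.0624). tdrkh passed without AC ovary replicate 1 (1.18, adjusted p = 0.00609), and tdrd9 passed under 9 of 23 alternatives, among them the separate TEtranscripts counts of the same libraries (1.00, adjusted p = 0.00995). tdrd7b (1.56, SE 0.75, adjusted p = 0.132) and tdrd3 (0.37, SE 0.29, adjusted p = 0.357) overlapped between the organs. DESeq2 called 6 of the 7, all but tdrd3, where it called 7614 of 20488 genes, against 6354 of 20893 by edgeR.

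Other genes of the pathway were taken from lists. Of 26 other Tudor domain symbols 17 genes were found, and all 17 were tested. In gonads against brains 9 were higher and 4 lower (median log2 fold change 1.08, against -0.02 over all genes), a share called near the 75.7% of all genes. Without AC ovary replicate 1 there were 10 and 4. rnf17, a germ cell gene like tdrd1, led with 8.58 (SE 0.31, adjusted p = 2.87e-11), followed by phf19 (4.28), which reads histone methylation in the Polycomb complex, and uhrf1 (3.93), which keeps DNA methylation through replication. phf1, a relative of phf19, fell by 4.99, with 0.249 TPM in testes and 0.0255 TPM in ovaries against 3.73 TPM in male and 5.21 TPM in female brains. The DNA damage protein tp53bp1 fell by 2.14 and the splicing factor smndc1 by 1.23. In testes against ovary 3 of these 17 were higher: phf1 (2.51), rnf17 (1.35) and the histone demethylase kdm4aa (1.12). The size of the phf1 fold depends on the prior count, as ovaries had only 0.0255 ± 0.0509 TPM (SD). Another 3 were lower: smn1, the motor neuron survival gene (-1.12), the Polycomb factor mtf2 (-0.86) and the coactivator snd1 (-0.59). The median of the 17 was -0.15. Without AC ovary replicate 1 there were 3 higher and 2 lower. With all libraries 30.4% of all genes were called in this contrast (16.2% higher and 14.2% lower).

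For the 31 listed symbols of piRNA pathway and germ cell partners 20 genes were found, 4 of them under the symbol piwil1, and 18 were tested. In gonads against brains 15 were higher and 2 lower, with a median of 5.79, beside 37.1% and 38.6% of all genes. The counts were the same without AC ovary replicate 1. piwil2, whose Piwi protein Tdrd1 binds in zebrafish, had a log2 fold change of 9.70 (SE 0.41). dnd1, a germ cell RNA-binding protein, had 189 TPM in testes and 189 TPM in ovaries against 0.244 TPM in male brains and 0 in all female brains, and henmt1, which methylates piRNA ends, 115 and 130 TPM against 0.299 TPM and 0. No fold is given for these 2, as it would depend on the prior count. The chaperone hsp90aa1.2 fell by 1.93 and the RNA helicase ddx39b by 1.03. In testes against ovary 30.4% of all genes were called (16.2% higher and 14.2% lower). Of these 18 partners 6 were higher and 0 lower (median 0.62), and 7 were higher without AC ovary replicate 1. The largest were pld6, a mitochondrial nuclease of piRNA biogenesis (2.43, SE 0.38), the piwil1 gene ENSACLG00000014540 (2.04, SE 0.52) and asz1, a mitochondrial partner in the same step (1.89, SE 0.44). The piwil1 value is uncertain, since 4 genes carry that symbol and reads shared between them were not tested.

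Of 9 listed partners of the TDRD3 protein 8 were found and tested. In gonads against brains 5 were higher and 1 lower (median 0.75), again a share near the 75.7% of all genes, and without AC ovary replicate 1 there were 6 and 1. Among them were the fragile X gene fmr1 (1.17, SE 0.40), its relative fxr2 (1.02, SE 0.15) and the deubiquitinase usp9 (0.98, SE 0.24), while the helicase dhx9 fell by 0.50. In testes against ovary fxr1 (3.48, SE 0.51) and usp9 (1.62, SE 0.32) were higher and none was lower, beside 16.2% and 14.2% of all genes. All of these values are from counts, like the value of tdrd3.

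The members also differed in which genes followed the same pattern over the 14 libraries, taken as the Pearson r of log2(TPM + 1) among 14620 genes with a symbol and a mean of at least 1 TPM. The points share their libraries and for most members reflect 2 organs, so the r values are descriptive. For tdrd3, whose organs overlapped, AC ovary replicate 1 (8.28 TPM) instead stood apart from all other libraries (31.8 to 55.1 TPM). tdrkh was also lowest in that library (0.183 TPM). How far the r values of tdrd3 and tdrkh rest on it was not tested. tdrd1 was closest to piwil2 (0.998), ddx4 (0.997) and selenoh (0.996). tdrd6 was closest to utp15 (0.995), polq (0.995) and piwil1 (0.994), tdrd7a to H2AZ1 (0.996), gcna (0.995) and cdyl (0.994), and tdrd9 to dsn1 (0.992), mtbp (0.990) and zbtb22a (0.990). tdrd7b instead was closest to GPR180 (0.994), msi1 (0.994), the RNA-binding protein Musashi of neural progenitors, and slc1a4 (0.992). tdrkh was closest to snrnp200 (0.979), mdm4 (0.979) and rtf1 (0.975), and tdrd3 to hmgcrb (0.990), pik3r4 (0.984) and d2hgdh (0.981). Between members, tdrd1, tdrd6, tdrd7a and tdrd9 correlated at 0.96 to 0.99 with one another, tdrd7a and tdrd7b at -0.82, and tdrkh at 0.73 with tdrd7b and 0.71 with tdrd3.

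The testes of TM and MZ were compared with those of AC to see how the genes vary between close species. Reads of all 3 species were counted on the AC genome, and RNA level and mapping to that genome cannot be told apart in these contrasts. Per the study's methods, the MZ fish were dominant adult males bought from a commercial supplier, while AC and TM were grown in its own tanks. In contrasts with MZ, species thus cannot be told apart from origin and housing. TM and MZ were set against the same 4 AC libraries. Of 16 other Tudor domain genes tested 1 was higher in TM than AC, 1 lower in MZ than AC and 2 higher in TM than MZ. Of 19 piRNA partners 1, 1 and 1 were called in these contrasts (higher, higher and lower). Over all genes and TE families 18.8%, 8.90% and 10.2% were called in the same order. Whether the listed relatives differ from these shares was not tested. In TM against AC testes 1 of 7 members was called, tdrd9, which was lower in TM, beside 18.8% of 20705 genes and TE families (8.87% higher and 9.93% lower; 1836 and 2057, or 1315 and 2845 by total counts). In MZ against AC edgeR called 0 of 7, beside 8.90% (5.17% higher and 3.73% lower), and in TM against MZ 0 of 7, beside 10.2% (3.77% higher and 6.45% lower; 781 and 1335, or 617 and 1843 by total counts). Libraries did not overlap for 1 member in TM against AC (tdrd9), 2 in MZ against AC (tdrd1 and tdrd9) and 2 in TM against MZ (tdrd7b and tdrd9), beside 28.4%, 28.2% and 34.7% of features.

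tdrd9 had 115, 129, 115 and 139 CPM in TM testes and 139 and 152 CPM in MZ testes, against 186, 219, 230 and 205 CPM in AC testes. Both other species lay below every AC library. The log2 fold change was -0.75 in TM (SE 0.13, adjusted p = 0.00273, edgeR) and -0.53 in MZ (SE 0.16, adjusted p = 0.0707). The TM call was kept under all 17 alternatives, and in MZ DESeq2 (adjusted p = 0.0128) and a fit of genes without TE families (0.0493) passed. In MZ tdrd9 was also the 1 member with an unadjusted p under 0.05.

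The lowly expressed paralogue tdrd7b had 1.74, 2.28, 2.33 and 2.57 CPM in TM testes and 3.0 and 6.40 CPM in MZ testes, against 3.57, 2.77, 2.79 and 2.44 CPM in AC testes. MZ replicate 2 was high and MZ replicate 1 lay among the AC libraries. TM against MZ gave -1.08 (SE 0.34, adjusted p = 0.0692), the 1 member there with an unadjusted p under 0.05. DESeq2 called it (adjusted p = 0.0299), as did the fit scaled by total counts (0.0485). The value was not stable: with a library left out it ranged from -1.50, without MZ replicate 1, to -0.43. These levels rest on 41 to 171 counts per library, while tdrd7a had between 7170 and 12117.

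**Figure D4:**
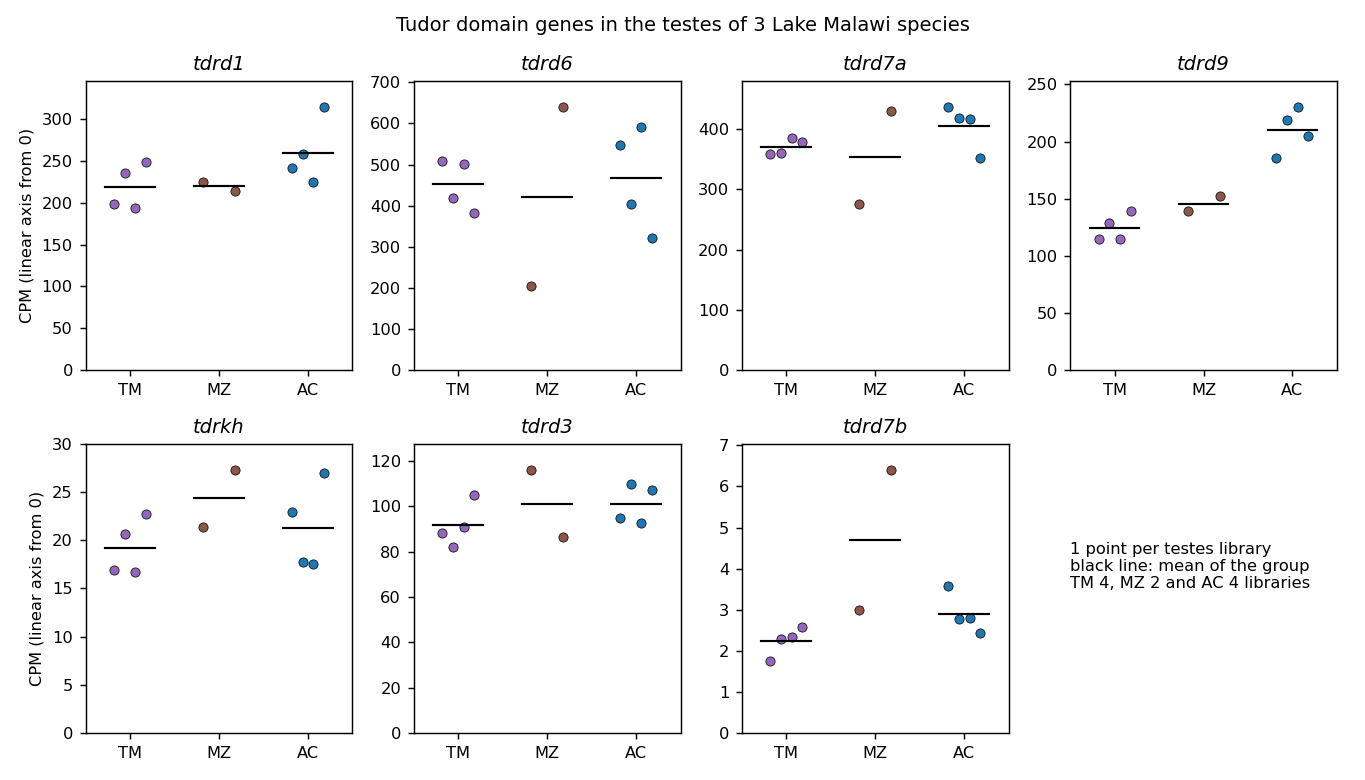
Level of each Tudor domain gene in the testes of TM (4 libraries), MZ (2) and AC (4), in CPM on linear axes from 0, with 1 point per library and the mean of the group as a line. tdrd9 lies at 115 to 139 CPM in TM and 139 to 152 CPM in MZ, below the 186 to 230 CPM of AC, and the MZ pair lies far apart for tdrd6 (204 and 639 CPM).

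For the other members no difference between species was called by edgeR. tdrd1 had 198, 236, 194 and 249 CPM in TM and 225 and 214 CPM in MZ, against 242, 258, 225 and 314 CPM in AC; both MZ libraries lay just below the lowest AC library (-0.24 in both, SE 0.15 and 0.19, adjusted p = 0.302 and 0.462). tdrkh (16.7 to 22.7 CPM in TM, 21.4 and 27.3 in MZ, 17.5 to 27.0 in AC) and tdrd3 (82.1 to 105 in TM, 86.3 and 116 in MZ, 92.8 to 110 in AC) overlapped between species. tdrd7a had 359 to 385 CPM in TM and 276 and 430 CPM in MZ, against 352 to 436 CPM in AC.

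The levels of tdrd6 in testes were set beside those of male germ cell and sperm markers, which include the meiotic gene sycp3. It had 509, 419, 501 and 381 CPM in TM and 204 and 639 CPM in MZ, against 547, 404, 591 and 322 CPM in AC. The 10 male germ cell and sperm markers summed to 1820, 1090, 1700 and 1200 CPM in TM and 399 and 2060 CPM in MZ, against 1570, 1120, 2260 and 572 CPM in AC. The 5 libraries highest in the markers were also the 5 highest in tdrd6, and MZ replicate 1, the lowest in the markers, was the lowest in tdrd6. This pairing was noticed in the data and was not tested. tdrd7a shared 4 of the 5 and was likewise lowest in MZ replicate 1, whereas tdrd1 shared 1 and was highest in AC replicate 4, the second lowest in the markers. The MZ value of tdrd6 turned on this spread: against AC it was -0.15 (SE 0.38) with both MZ libraries, 0.44 without MZ replicate 1 and -1.19 without MZ replicate 2.

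**Figure D5:**
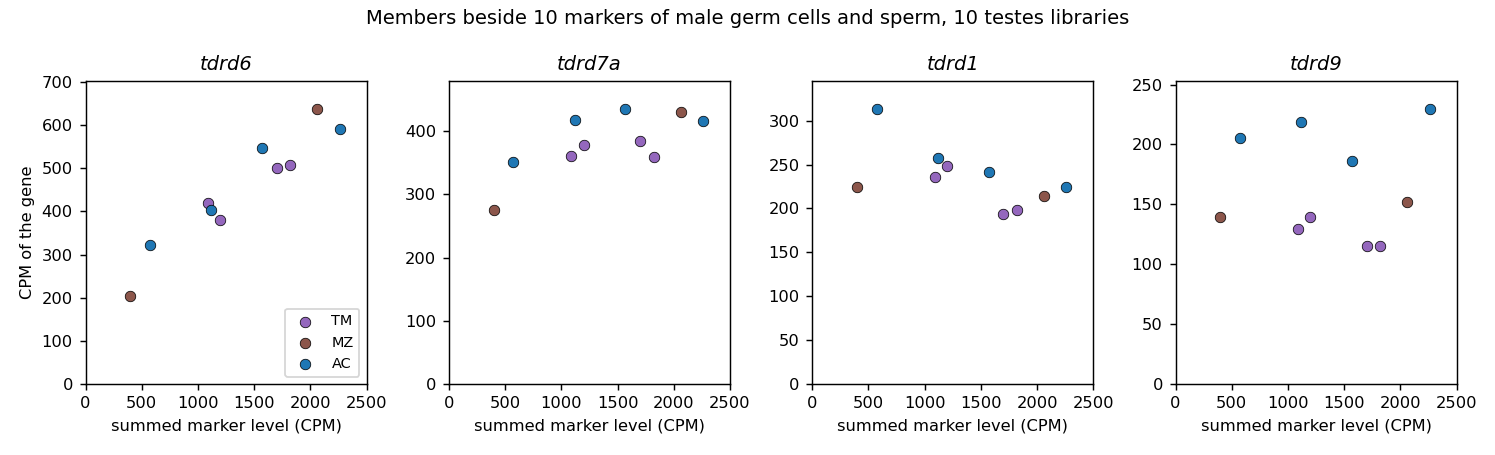
Level of tdrd6, tdrd7a, tdrd1 and tdrd9 in each of the 10 testes libraries against the summed level of 10 markers of male germ cells and sperm, both in CPM, coloured by species. tdrd6 runs from 204 CPM at 399 CPM of markers to 591 CPM at 2260, tdrd1 is highest (314 CPM) at 572 CPM of markers, and AC lies above TM and MZ for tdrd9 at all marker levels.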

How the data were processed

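Per the study's methods, mRNA was enriched by poly(A) selection and reads were trimmed with Trimmomatic, quantified with Salmon for the AC gene table and mapped with STAR for the TE tables, where reads with many matches were kept. The versions (Trimmomatic 0.39, Salmon 1.5.1, STAR 2.5.4b) are those of the submitters' processing notes. The authors deposited expected counts per gene from salmon (78.4% whole numbers, rounded here) and a companion table of scores that behave as TPM, since each library sums to 1000000 once 382 repeated entries are dropped. They also deposited raw counts of genes and TE families from TEtranscripts on the genome fAstCal1.2, with curated TE annotation for AC, MZ and TM (28558 features, of which 557 TE families). Tables of normalised TE values hold no genes and were not used here, and those of Astatotilapia burtoni, Pundamilia nyererei and Oreochromis niloticus were not analysed here, since the members are found by symbol and those tables pair none with their identifiers.

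Counts were fitted with edgeR 4.0.16 in R 4.3.3 (filterByExpr by group, TMM, robust quasi-likelihood), in 1 model over the 14 AC libraries and 1 over the 10 testes libraries of AC, MZ and TM. The 6 AC and 3 Lake Malawi contrasts were called at a Benjamini-Hochberg adjusted p under 0.05 over all features. SE is the absolute log2 fold change divided by the square root of F. Counts carry no length offset, and CPM are scaled with TMM factors, except the oocyte marker sums and the limits for a count of 0, which use library totals. The paralogue ratio was tested by exact permutation over libraries (SciPy 1.17.1). Alternatives were RLE and total count scaling, DESeq2 1.42.0, no filter, a replicate block, fits of the compared groups, other count tables, leaving out each library, other pseudocounts (1 and 0.01 TPM, 0.5 counts) and, added after the data were seen, limma 3.58.1 on log2(TPM + 0.1). The edgeR fits were tested on simulated data for testes against ovary and for TM against AC testes, and the limma fit for testes against ovary; the other contrasts and the permutation test were not. Named genes were the 7 members, the 3 genes most alike to each, and up to 3 called genes per list and direction with the largest change. Members and lists were chosen with earlier results of these data known. Replicates are individuals per the study's methods, and counts of replicates differed beyond sampling noise in every pair (chi-square over df at least 7.32), so no pair was treated as 1 library. Depth sets a limit of 3 counts for a count of 0; no molecular identifiers are described, so such limits cover counting error only. Embryo and small RNA data and sequences of the genes were not analysed here.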

Additional observations from a re-analysis of the deposited data

Results flagged for a closer look

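Of 21 groups of 4 libraries (7 genes in AC testes, AC ovaries and TM testes) that were checked for a library far from the rest, 1 held one, and chance gives about 1 in 20. tdrd1 had 118 TPM in AC testes replicate 4, against 95.5 to 97.0 TPM in the other 3 AC testes (gap over range 0.931, above Dixon's critical value for 4 samples). In the counts of the Lake Malawi table the same library was also the highest of the 10 testes for tdrd1 (314 CPM), and its male germ cell and sperm markers were the lowest of the AC testes (572 CPM, against 1120 to 2260 CPM). The part of cell composition in this value was not tested.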

How the results depend on the processing

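Over 1238 refits of single genes in single comparisons 1128 kept direction and side of the threshold, 34 lost and 28 gained a call and 48 changed sign; the cause was not tested. Members called in testes against ovary numbered 3, or 6 by DESeq2 and 2 to 5 with a library left out; in TM against AC 1, or 2 by total counts; in MZ against AC 0, or 1 by DESeq2 and without TE families; in TM against MZ 0, or 1 by DESeq2 and by total counts and 0 to 1 with a library left out. Over all features, counts that moved by over 1.5 times were, in MZ against AC (1842), 3021 by DESeq2, 625 with the replicate block, 479 with ovaries in the fit and 1166 to 2712 with a library left out; in TM against MZ (2116), 3391, 856, 563 and 1159 to 4112; in TM against AC (3893), 1584 with ovaries and 2543 to 5019 with a library left out; in testes against ovary (6354), 3722 in a fit of these groups alone and 4217 from the uncurated TE table; in the interaction (2594), 1617 to 4105; and between brains (0), 10 by DESeq2, 8 by limma and 0 to 2. Higher and lower calls were 4679 and 8708 by limma against 6762 and 7387 by edgeR in ovary against female brain, 1505 and 270 against 1595 and 999 in the interaction, and 151 and 412 with ovaries against 781 and 1335 in TM against MZ. The gonad minus brain log2 ratio of tdrd7a to tdrd7b stayed between 8.45 and 13.87. Testes minus ovary it turned to -0.91 (0.01 TPM added), -1.04 (salmon counts), -1.33 (TEtranscripts counts) and ranged from -0.17 to 0.97 with a library left out.

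Of called values 1 changed sign, that of tdrd3 in gonads against brains on TPM by limma; the rest had not passed the test. On TPM by limma tdrd3 had -0.03 in gonads against brains and -0.53 in ovary against female brain, and tdrkh -0.03 between brains. RLE moved the median of all genes in gonads against brains from -0.02 to -0.31, where tdrd3 had 0.45 (0.76 above that median). For tdrd3 in MZ against AC (0.00) RLE, no filter and DESeq2 gave -0.01, total counts -0.04 and genes only -0.02. For TM against MZ total counts gave -0.14 (tdrd1), -0.06 (tdrd6) and -0.08 (tdrd7a), and for tdrd1 (0.00) genes only gave -0.04 and the fit with ovaries -0.01.

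With a library left out the ranges of results that changed sign were -0.23 to 0.06 (tdrkh, testes against male brain), -0.42 to 0.04 (tdrd3), -1.09 to 1.12 (tdrd7a), -0.17 to 0.27 (tdrd7b), -0.90 to 0.51 (tdrd9) and -0.10 to 0.18 (tdrkh) between brains, -0.18 to 0.09 (tdrd6, TM against AC), -0.24 to 0.20 (tdrd3), -1.19 to 0.44 (tdrd6) and -0.56 to 0.07 (tdrd7a) in MZ against AC, and -0.07 to 0.06 (tdrd1), -0.34 to 0.10 (tdrd3), -0.48 to 1.15 (tdrd6) and -0.20 to 0.43 (tdrd7a) in TM against MZ.

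The labels do not say whether gonad and brain samples with the same replicate number come from the same fish. Same-number correlations of deviations lay between -0.191 and 0.238 over all pairs of groups. For gonad and brain of the same sex they lay between 0.016 and 0.113. These values cannot tell whether such samples share a fish. With the replicate number as a block edgeR called 3 members in testes against ovary and 7 in gonads against brains (tdrkh -1.16, adjusted p = 0.0496). It called 5 in testes against male brain (tdrd7b -1.55, adjusted p = 0.133) and 6 in ovary against female brain. Of 20893 genes the block called 5038, 14794, 12478 and 13173 in these contrasts, in that order. tdrkh between brains had 0.00 and tdrd1 in TM against MZ -0.04, and no other call moved.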
